A study of Homo sapiens with 20 samples.

Results

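Human neural progenitors made from the embryonic stem cell line H1 were lifted from their plates and replated at day 4 of differentiation, and the step from the last day before replating (day 4) to the first day after it (day 5) was examined. It rests on 5 of the 20 samples of the series, 3 cultures labelled day 4 and 2 labelled day 5, for which the submitters had discarded a further culture as an outlier. All cultures carried the unmodified H1 genome, had been expanded with FGF on Matrigel, and were differentiated from day 0 by withdrawing FGF and adding BDNF. The day 4 cultures were still on the Matrigel wells of the start, whereas the day 5 cultures had been moved to wells coated with poly-D-lysine and laminin, and cells of every day were detached with Accutase at harvest. One day of differentiation, the handling at replating, the new surface and any loss of cells that did not reattach therefore coincide and cannot be told apart.

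Polyadenylated RNA was sequenced. Each gene record has 1 FPKM value per day (fragments scaled by transcript length and by the number of mapped fragments), pooled over the cultures of that day. No value of a single culture was used, so no spread between cultures, error or test can be given, the depth behind each value is unknown, and every difference below is a difference between 2 pooled values. Change means the difference in log2(FPKM + 0.1), day 5 minus day 4, less its median over all records with a mean FPKM of the 7 days of at least 1. This scale understates the change of low genes. A record is said to have risen or fallen where its change was at least 0.5 in size, which is 1.41-fold. Of 38369 records, 14443 had a mean FPKM of at least 1, namely 11793 of the 20237 coding records and 2650 of the 18132 records of long intergenic noncoding RNAs (lincRNAs). Their median raw change was −0.07, and FPKM values summed to 376658 at day 4 and 350642 at day 5.

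Progenitors of the neural tube divide, and leave the cell cycle as proneural transcription factors switch on genes of the neuronal cytoskeleton, the synapse and excitability. Cells that are lifted and set down again have to rebuild their contacts through integrins, the receptors for laminin and other matrix proteins. The spread and tension of a cell are read out by the coactivators YAP and TAZ, which bind TEAD factors at the DNA, and by serum response factor, which controls immediate early and contractile genes.

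The labelled cell type was borne out by its markers on both days. The intermediate filament NES stood at 508 FPKM on day 4 and 474 on day 5, and the progenitor factors SOX2 (121 on both days), SOX1 (14.1 and 13.1), PAX6 (8.23 and 7.80) and the RNA-binding protein MSI1 (60.6 and 57.3) changed by no more than 0.07 in size. Neuronal markers were present on both days, and most had been since day 0 (DCX 5.465, STMN2 32.3, TUBB3 382 and MAP2 93.45 FPKM, but ELAVL4 only 0.149). DCX, a microtubule-associated protein of young neurons, went from 23.5 to 39.1 FPKM (change 0.80), STMN2, a microtubule regulator of growing axons, from 131 to 238 (0.93), and ELAVL4, a neuronal RNA-binding protein, from 0.767 to 1.64 (1.08). TUBB3, whose record is merged with MC1R, went from 352 to 413 (0.30), ELAVL3 from 28.3 to 31.3 (0.22) and MAP2 from 184 to 174 (−0.003). In bulk RNA, more cells of a type and more RNA per cell cannot be told apart.

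Some markers of other cell types were below 0.1 FPKM on both days, and the 6 named first were picked after their values were seen. GFAP, the filament of astrocytes, was at 0.0341 and 0.0343 FPKM, OLIG2 of the oligodendrocyte lineage at 0.0376 and 0.0404, SOX10 of neural crest and oligodendrocytes at 0.0313 and 0.0325, PTPRC of blood cells at 0.00564 and 0.00342, CDH5 of endothelium at 0.0553 and 0.0651, and POU5F1 of pluripotent cells at 0.0675 and 0.0446. Other markers of these cell types were expressed, and some of them rose. Of 24 neural crest and mesenchymal markers, 12 were expressed, 4 rose (33.3% of the 12, against 3.49% of all coding records) and 0 fell. Their median change was 0.41, but 0.26 with a pseudocount of 1 and 0.18 with no filter on low values. Those that rose were the hyaluronan receptor CD44 (3.74 to 6.14), the galectin LGALS1 (8.42 to 12.7), THY1 (1.01 to 1.47) and S100A11 (4.93 to 6.76). The summed level of the list was 139 on day 4 and 158 on day 5. Of 14 astrocyte markers, 9 were expressed, 4 rose (44.4% of the 9) and 0 fell (median 0.40). Those that rose were the glutamate transporters SLC1A2 (2.61 to 5.07) and SLC1A3 (21.9 to 32.3), CD44 and S100B (0.762 to 1.09), and the list summed to 153 and 165. Oligodendrocyte lineage markers summed to 54.2 and 51.0 (0 of 3 expressed members past the fold, median −0.07), pluripotency markers to 39.0 and 37.1 (1 of 5 higher, DNMT3B, 5.30 to 7.56; median −0.12), and microglia and blood markers to 1.70 and 1.58 (0 of 2, median −0.06; the record of CSF1R, merged with PDGFRB, −0.13). Endothelial markers summed to 4.68 and 6.75, and of their 2 expressed members KDR, a receptor for VEGF, went from 2.10 to 3.84 FPKM (0.91; median 0.57). What part these cell types had in the results below was not tested.

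The step was small beside most of the others. From day 4 to day 5, 566 of 11793 coding records (4.8%) were past the fold, against 2.73% between days 1 and 2 and 6.26% between days 2 and 4. The share was 27.3% in the first day of differentiation, 17.8% in the step that ended on day 11 and 15.7% in the last one. These steps span 1 to 7 days and adjacent ones share a day, so the shares are a description. Its directions were uneven: 412 coding records rose (3.49%) and 154 fell (1.31%), so 72.8% of those past the fold were higher, whereas the other steps had between 33.9% and 54.8% higher. That share leans on the centring: it was 56.2% on the values as deposited, 79.1% when the days were scaled to the same sum of FPKM, and 96.2% when the median of the ribosomal protein genes was set to 0. At a stricter change of 1, or 2-fold, 44 coding records rose (0.373%) and 5 fell (0.0424%). Among lincRNA records 195 were past the fold (7.36%), 117 higher (4.42%) and 78 lower (2.94%), and at a change of 1 these were 21 (0.792%) and 17 (0.642%). Of the lincRNA records past the fold 60% were higher, 40.3% on the values as deposited and 90.6% when centred on ribosomal protein genes.

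**Figure D1:**
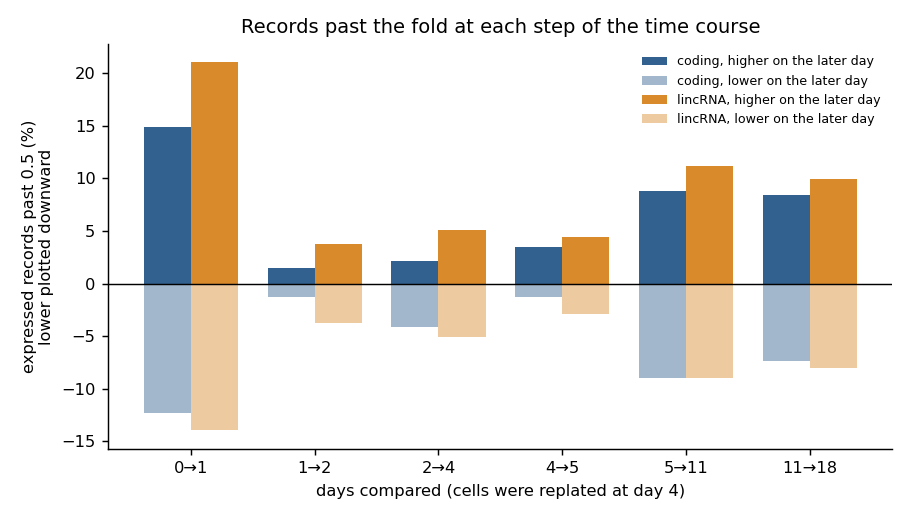
Share of expressed records past a centred log2 change of 0.5 at each of the 6 steps (y axis, percent, lower shares drawn below 0) against the pair of days compared (x axis), for coding and lincRNA records; bars are counts of records over 11793 coding and 2650 lincRNA records, with no error since each day is 1 pooled value. At the step from day 4 to day 5 the bar for higher coding records (3.49%) is longer than that for lower ones (1.31%).

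How often a record passed the fold depended on its level. Of coding records with a mean between 1 and 2 FPKM, 16.3% were past it, of those between 2 and 5 FPKM 7.56%, of those between 5 and 20 FPKM 3.4%, and of those of 20 FPKM or more 2.26%. Between days 1 and 2, the same classes had 10.5%, 4.92%, 1.71% and 0.964%. From day 4 to day 5, those that rose were 125 of 936, 121 of 1972, 128 of 5567 and 38 of 3318 records. Counts in gene lists of low level below are therefore to be read against the class and not only against 3.49% of all coding records. The fold itself cut through a continuum, with SPP1 just inside (0.5001) and CLCN4 just outside (0.4994) among rising coding records, and FLT4 (−0.5007) and FRAS1 (−0.4995) on the falling side.

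The largest rise of a coding record was that of DHRS2, a short-chain dehydrogenase (chr14:24099324-24114846, hg19, plus strand). It stood at 1.28, 1.44, 0.385 and 0.435 FPKM on days 0, 1, 2 and 4, at 3.90 on day 5, and at 0.188 and 0.211 on days 11 and 18, a change of 2.97 (7.85-fold). Day 5 was thus its highest day by a wide margin. Its mean over the 7 days was 1.12 FPKM, and it passed the filter only through day 5. Its place in this ranking therefore rests on the day on which it was high. EPAS1, the hypoxia-inducible factor HIF-2 alpha, held 3.66, 4.40, 5.13 and 3.66 FPKM up to day 4, reached 9.60 on day 5, and was at 0.712 and 0.468 afterwards (change 1.44, 2.71-fold). The calcium buffer CALB1 moved from 13.4 to 32.6 between levels of 52.4 at day 0 and 8.33 at day 11 (1.35), and COL13A1, a collagen with a membrane anchor found at adhesion sites, from 0.307 to 0.912 between 17.6 at day 0 and 0.0280 at day 11 (1.39). These 4 genes were below their day 5 level again by day 11. COL13A1 passed the filter only through its level on day 0. AHNAK2, a very large scaffold protein, went from 0.910 to 2.12 FPKM (1.20) and had 0.540 at day 11, and the linker histone gene HIST1H1C went from 1.65 to 4.90 (1.59).

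Other large rises continued on the later days. The filter averages all 7 days, so genes as low up to day 5 as SYT13 and CHST8 could be listed only through their later days. The neuropeptide gene SST went from 1.24 FPKM on day 4 to 3.94 on day 5 and 13.7 on day 11 (change 1.67). SYT13, a synaptotagmin, had risen from 0.0507 on day 0 to 0.324 on day 4, and was at 0.923 on day 5, 2.83 on day 11 and 10.7 on day 18 (1.34). The sulfotransferase CHST8 (0.354 to 1.01; 1.37), the patterning gene MAB21L2 (0.941 to 2.39; 1.33) and the actin-binding neuronal protein KLHL1 (1.38 to 3.13; 1.19) likewise stood higher on day 11 than on day 5, at 3.60, 7.52 and 7.07 FPKM. NPS, a neuropeptide precursor, met the rule for the largest rises but was listed at 0 on day 4 and at 0.122 on day 5, so no fold is given.

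Among the largest falls, the first places were held by records that cannot be read with certainty: HLA-H (4.43 to 0.436 FPKM), which has near-identical copies and was listed at levels from 0.0118 to 5.79 across the days, FAM157A (1.63 to 0.256), 99.5% identical to a BET1L transcript over 212 bases, and an unnamed record on chromosome 1 (1.76 to 0.343) whose estimate the authors' table marks as failed. The merged record of ANG and RNASE4, secreted ribonucleases, went from 1.79 to 0.825 (−0.96) and C1orf216 from 3.49 to 1.77 (−0.87). The remaining 7 of the 12 fall into the groups described next: ANKRD1, CTGF, CYR61 and TEAD4, the immediate early gene EGR1, INHBE, and MYBL2.

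**Figure D2:**
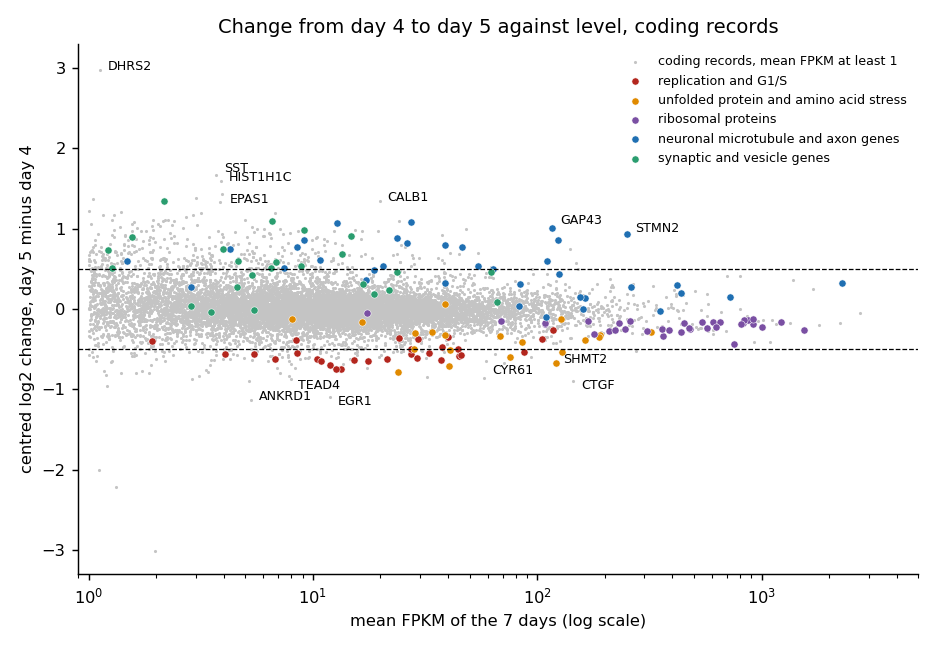
Centred log2 change from day 4 to day 5 (y axis) against the mean FPKM of the 7 days (x axis, log scale) for 11793 coding records (grey), with 5 gene lists in colour and dashed lines at 0.5 in size. Replication genes (red) lie below the lower line or between it and 0, and neuronal and synaptic genes (blue, green) lie mostly above 0.

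Genes that respond to YAP and TEAD split, with the best known of them falling. CTGF, a secreted matricellular protein, stood at 131, 169, 296 and 226 FPKM on days 0, 1, 2 and 4 and at 116 on day 5, a change of −0.89 (1.85-fold lower), and went on to 35.6 and 37.6. Its relative CYR61 held 48.9, 68.9, 98.4 and 104 FPKM up to day 4 and 54.6 on day 5 (−0.85), and ANKRD1, a nuclear and sarcomeric ankyrin-repeat protein, fell from 1.83 to 0.734 (−1.14) after 12.8 on day 2. AJUBA, a LIM protein that binds the YAP kinase LATS and is listed as JUB, fell from 55.4 to 36.2 (−0.54). TEAD4, one of the DNA-binding partners and not itself on the list, went from 9.82 to 5.06 (−0.87, 1.83-fold lower). All of these had lower levels again on day 11. The ecto-nucleotidase NT5E moved the other way, from 1.86 to 2.79 FPKM (0.64). Of the 19 expressed members of the list 4 fell (21.1%, against 1.31% of all coding records) and 1 rose (5.26%, against 3.49%). Of the same 19, 12 were below the median of all records and 7 above it, and the list's median of −0.14 turned to 0.05 when the days were centred on ribosomal protein genes.

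Promoters of this group were searched for GGAATG, the core of the TEAD binding motif, on both strands, in the 300 bases from 250 before to 50 after each RefSeq start (GRCh38.p14). Of 27305 genes with a promoter in the table, 4567 (16.7%) held it at 1 or more of their starts. Entries were matched for 15 of the 19 list members, and 9 of these held the motif, 3 of the 4 that were past the fold and had an entry (CTGF, ANKRD1 and AJUBA, but not NT5E) and 6 of the other 11. CYR61 had no entry. The 2 promoters below are shown because their genes had the largest falls of the list with an entry; capitals mark the motif. That of CTGF (chr6:131951323-131951622, minus strand) holds it at −169, −104 and −95 and that of ANKRD1 (chr10:90921038-90921337, minus strand) at −220 and −128, counted from the start to the first base of each match.
CTGF: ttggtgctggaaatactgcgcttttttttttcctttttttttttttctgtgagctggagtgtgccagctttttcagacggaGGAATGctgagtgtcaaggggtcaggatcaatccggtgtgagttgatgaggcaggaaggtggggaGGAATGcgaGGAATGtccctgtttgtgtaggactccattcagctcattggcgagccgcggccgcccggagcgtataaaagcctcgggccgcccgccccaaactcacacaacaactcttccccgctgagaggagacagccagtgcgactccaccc
ANKRD1: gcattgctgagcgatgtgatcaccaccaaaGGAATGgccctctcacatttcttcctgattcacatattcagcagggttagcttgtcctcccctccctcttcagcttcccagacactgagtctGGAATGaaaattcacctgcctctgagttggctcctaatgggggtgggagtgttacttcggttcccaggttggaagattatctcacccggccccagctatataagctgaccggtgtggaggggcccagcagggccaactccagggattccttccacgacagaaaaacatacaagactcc
A match of letters is a description and not evidence of binding.

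EGR1, an immediate early transcription factor (chr5:137801181-137805004, hg19, plus strand), had climbed from 1.78 FPKM on day 0 to 11.5, 22.2 and 23.3 on days 1, 2 and 4 and was at 10.4 on day 5 (−1.09, 2.13-fold lower). It was the only one of 16 expressed immediate early genes to fall, and BTG2, an antiproliferative gene, the only one to rise (6.02 to 9.20; 0.68). FOS went from 3.04 to 2.36 FPKM, JUN from 35.1 to 37.8, ATF3 from 27.3 to 21.1 and MYC from 9.14 to 6.16, none past the fold (these 4 were picked after their values were seen), and the list's median of −0.09 turned to 0.10 among members averaging at least 5 FPKM, to 0.03 with no filter on low values and to 0.10 when centred on ribosomal protein genes. Targets of ERK signalling and ETS factors had a median of 0.13, with 3 of 18 higher (16.7%, against 3.49% of all coding records) and 0 lower: ETV4 (6.46 to 12.1; 0.97), the secreted peptide precursor VGF (25.0 to 45.0; 0.92) and ETV1 (5.87 to 8.49; 0.60). ETV4 and VGF were lower on day 4 than on any of days 0, 1 and 2.

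Of 18 expressed laminin and integrin subunits 1 rose and 0 fell, 5.56% against 3.49% of all coding records (median 0.11): ITGA3, an integrin alpha chain that pairs with ITGB1 as a laminin receptor, went from 3.34 to 5.22 FPKM (0.70), after 12.9, 5.33 and 7.59 on days 0, 1 and 2. Matrix genes held both directions, with 4 of 26 higher (15.4%) and 1 lower (3.85%, against 1.31% of all coding records), and a median of 0.09. COL13A1, described above, THBS2 (1.48 to 3.13; 1.10), the glycoprotein TNC (12.5 to 20.3; 0.77) and the brain proteoglycan NCAN (15.0 to 21.5; 0.59) rose, whereas THBS1, an adhesive glycoprotein, fell from 90.2 to 55 (−0.64). Matrix proteases and their inhibitors had a median of 0.32, with 5 of 17 higher (29.4%) and 0 lower, among them MMP24 (1.85 to 3.04; 0.76), tissue plasminogen activator PLAT (9.77 to 15.2; 0.71) and the metalloprotease inhibitor TIMP4 (0.859 to 1.27; 0.59). TIMP4 had come down from 1.80 on day 2 and went to 0.135 on day 11, so its day 5 value interrupted a decline. The contractile actin list had a median of 0.04 with 2 of 21 higher (9.52%). TAGLN, an actin-binding protein of contractile cells, had 226 FPKM on day 2, 92.4 on day 4, 147 on day 5 and 21.9 on day 11 (0.74). TAGLN2, whose record is merged with CCDC19, went from 5.79 to 10.9 (0.97). Cadherins held 0 of 17 past the fold (median 0.09, PCDH10 0.40).

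**Figure D3:**
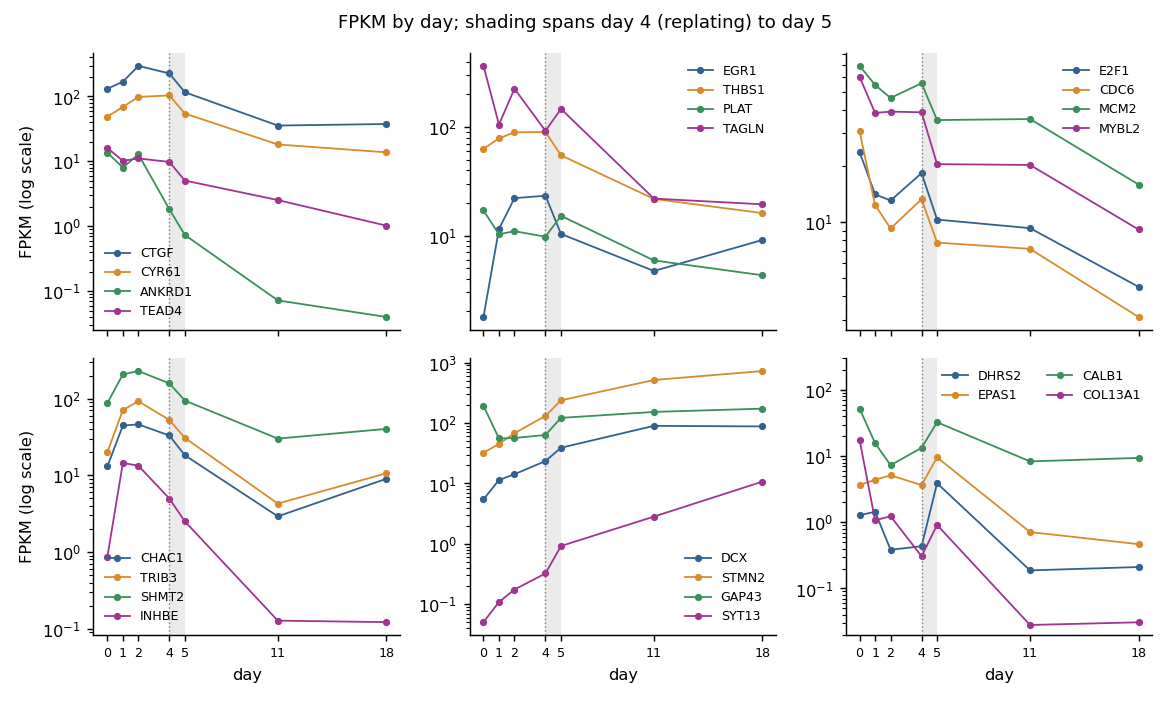
FPKM on a log scale (y axis) against the day of differentiation (x axis) for 24 genes in 6 panels, 1 pooled value per day; grey shading spans day 4, when cells were replated, to day 5. CTGF, CYR61 and EGR1 drop within the shading, E2F1 and CDC6 return from a local high at day 4, neuronal genes climb through it, and DHRS2, EPAS1, CALB1 and COL13A1 peak at day 5 relative to days 4 and 11.

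Genes of DNA replication and of the entry into S phase fell together. Of 29 expressed members 19 fell (65.5%, against 1.31% of all coding records), 0 rose, and all 29 were below the median of all records (−0.56 at their median). All 29 were also below the median of the ribosomal protein genes, at −0.37 by their median when the days were centred on those genes. E2F1, the transcription factor that drives the programme (chr20:32263293-32274210, hg19, minus strand), stood at 23.8, 14.1, 13.1 and 18.3 FPKM on days 0, 1, 2 and 4 and at 10.3 on day 5 (−0.75, 1.68-fold lower), and then at 9.28 and 4.50. CDC45 (listed as CDC45L), part of the replicative helicase, went from 17.4 to 9.84 (−0.74), CDC6, which loads that helicase, from 13.3 to 7.77 (−0.70), and CHAF1B, a subunit of the histone chaperone CAF-1, from 14.1 to 8.54 (−0.65). The fall reversed a rise: the list's median change had been −0.66 and −0.25 at the first steps and 0.33 over the step that ended on day 4, and it was 0.04 and −0.84 over the last steps. MCM2 and PCNA, named after their values were seen, went from 55.6 to 35.3 (−0.58) and from 138 to 109 (−0.26). MYBL2, a transcription factor of cycling cells, fell from 38.8 to 20.5 (−0.85) after holding 38.5 and 39.2 on days 1 and 2.

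Mitotic genes moved less than replication genes. All 30 were below the median of all records, and none was past the fold (range −0.48 to −0.09, median −0.31; 25 of 30 were also below the median of the ribosomal protein genes). CDC25C, a phosphatase that starts mitosis, was the largest in size, from 7.25 to 4.92 FPKM (−0.48). The highest mitotic change of −0.09 and the highest replication change of −0.26 were both negative, and the ranges of the lists overlapped between −0.48 and −0.26. Progenitor and radial glia genes as a list stayed level (median −0.01). Of 27 expressed members 3 rose (11.1%, against 3.49% of all coding records): TNC, SLC1A3 and the fatty acid binding protein FABP7 (91.4 to 130; 0.58). HES4, a Notch-responsive repressor, was the 1 that fell (3.7%, against 1.31%), from 37.6 to 24.9 (−0.52).

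Promoters of the replication genes were searched for TTCCCGC or TTGGCGC, letters of the E2F motif, on both strands of the same windows; these letters and the TEAD letters can overlap where GGAATG follows GCG. The share over all 27305 genes was 11.0%. Of the 24 replication genes with an entry 19 held a match (79.2%), 12 of the 16 that fell and 7 of the other 8, and of the 25 mitotic genes with an entry 3 did (12%). The promoters of E2F1 (chr20:33686336-33686635, GRCh38.p14, minus strand; a match at −19) and CHAF1A, the large subunit of CAF-1 (chr19:4402390-4402689, plus strand; matches at −37 and −7), are shown with the match in capitals, since E2F1 had the largest fall of the list and CHAF1A fell (22.3 to 13.6 FPKM, −0.64) and holds both forms of the motif.
E2F1: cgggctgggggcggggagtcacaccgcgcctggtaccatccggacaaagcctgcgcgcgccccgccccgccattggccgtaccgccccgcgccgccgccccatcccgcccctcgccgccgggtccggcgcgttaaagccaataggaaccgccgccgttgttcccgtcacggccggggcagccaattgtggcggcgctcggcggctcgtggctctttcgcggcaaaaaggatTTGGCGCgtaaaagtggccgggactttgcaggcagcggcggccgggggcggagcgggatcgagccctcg
CHAF1A: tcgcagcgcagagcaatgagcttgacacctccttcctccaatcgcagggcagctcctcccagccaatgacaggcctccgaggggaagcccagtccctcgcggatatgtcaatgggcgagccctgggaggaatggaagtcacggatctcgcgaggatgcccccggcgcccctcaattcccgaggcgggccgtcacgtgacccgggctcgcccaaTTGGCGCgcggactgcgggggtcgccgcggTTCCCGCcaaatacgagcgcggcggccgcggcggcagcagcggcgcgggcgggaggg
The list's makeup is textbook knowledge that itself draws on E2F targets, so the share of promoters with a match is a description of the list.

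A list of genes of the responses to amino acid shortage and to unfolded proteins, in which the transcription factor ATF4 takes part, also declined. Of its 20 members 6 fell (30%, against 1.31% of all coding records) and 0 rose. Of these members 19 were below the median of all records, and the median was −0.35 (−0.16 when centred on ribosomal protein genes, with 16 of 20 below 0). CHAC1, which degrades glutathione, had 13, 44.6, 46.1 and 33.1 FPKM on days 0, 1, 2 and 4 and 18.3 on day 5 (−0.78, 1.72-fold lower), followed by 2.92 and 9.01. The pseudokinase TRIB3 (52.7 to 30.8; −0.70), the mitochondrial serine hydroxymethyltransferase SHMT2 (158 to 94.4; −0.67) and the mTORC1 inhibitor DDIT4 (92.1 to 58; −0.60) fell alongside. ATF4 itself went from 376 to 293 (−0.29) and asparagine synthetase ASNS from 261 to 199 (−0.32), neither past the fold and both picked after their values were seen. The list's median had been 1.13 over the first day, which began with the withdrawal of FGF, and was −1.36 from day 5 to day 11. HSPA5, the main chaperone of the endoplasmic reticulum, was at 131 and 115 (−0.12; picked likewise).

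A further 25 genes of amino acid supply, chosen after these values were seen and thus no independent evidence, moved the same way. Of 24 expressed members 10 were lower (41.7%, against 1.31% of all coding records) and 0 higher, with a median of −0.46. INHBE, an activin subunit gene, fell from 4.99 to 2.51 FPKM (−0.89), the basic leucine zipper repressor JDP2 from 4.85 to 2.54 (−0.83), the folate enzyme MTHFD2 from 97.0 to 58.1 (−0.67) and the arginine transporter SLC7A1 from 44.8 to 27.9 (−0.61). INHBE had been 14.5 on day 1 and was at 0.128 on day 11. Letters of the composite motif bound by ATF4 and C/EBP proteins (TTGCATC, both strands) were searched in promoters of the earlier list of 20 only. Of its 18 members with an entry 2 held them (11.1%, CHAC1 and HERPUD1), against 2.99% of all genes.

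Ribosomal protein genes were lower by a small, even amount. All 34 were below the median of all records, none was past the fold, and their changes ran from −0.44 to −0.05 with a median of −0.19, so that on a scale set by these genes the median record was higher by 0.19. RPL3 changed most, from 1007 to 708 FPKM (−0.44). Oxidative phosphorylation (median 0.01, 0 of 28 past the fold, ATP5G1 0.24) and cholesterol synthesis (median −0.01, 0 of 30, range −0.32 to 0.25) stayed at the median of all records.

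Neuronal genes rose in large numbers. Of 36 genes of the neuronal microtubule and axon 19 rose (52.8%, against 3.49% of all coding records) and 0 fell, with a median of 0.51. STMN4, a stathmin of neurons, went from 14.2 to 28.9 FPKM (1.09), the granin SCG2 went from 8.52 to 17.2 (1.08), GAP43, a protein of growth cones, from 63.6 to 122 (1.01) and STMN2 from 131 to 238 (0.93). GAP43 had been at 193 on day 0 and between 55.7 and 63.6 on days 1, 2 and 4, whereas STMN2 had increased at each step from 32.3 on day 0 to 727 on day 18. Some members at high levels were not past the fold, among them the tubulin TUBB2B (663 to 703; 0.16), MAP2, and the ubiquitin hydrolase UCHL1 (430 to 401; −0.03), TUBB2B and UCHL1 being picked after their values were seen.

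Synaptic and vesicle genes had the same median of 0.51, with 13 of 24 higher (54.2%, against 3.49% of all coding records) and 0 lower. SYT13, described above, was followed by the complexin CPLX2 (3.26 to 6.75; 1.10), the vesicular glutamate transporter SLC17A6 (4.54 to 8.66; 0.99) and the synaptotagmin SYT4 (6.57 to 11.9; 0.91). Of 23 proneural and early neuron factors 11 rose (47.8%) and 0 fell (median 0.49), led by the zinc finger factor MYT1 (1.14 to 2.53; 1.15), ELAVL4, and the sensory neuron factors POU4F1 (9.91 to 18.7; 0.98) and EBF1 (5.37 to 9.32; 0.86). The proneural bHLH genes differed among themselves: NEUROD1, in a record merged with CERKL (3.57 to 5.15; 0.59), rose, while NEUROG2 (7.74 to 7.82; 0.09) and NEUROD4 (2.81 to 2.58; −0.05) were not past the fold (these 3 were picked after their values were seen). Ion channels and receptors had 8 of 22 higher (36.4%, against 3.49% of all coding records) and 0 lower. Their median was 0.29, and 0.16 among members averaging at least 5 FPKM. In front were the AMPA receptor subunit GRIA2 (1.73 to 3.44; 1.03), the glycine receptor subunit GLRA2 (0.464 to 0.952; 0.97), and the sodium and potassium channels SCN3A (3.16 to 5.74; 0.91) and KCND2 (0.346 to 0.609; 0.74). Axon guidance genes had 5 of 28 higher (17.9%) and 0 lower (median 0.15): PLXNA4 (0.617 to 1.32; 1.05), SEMA6D (3.81 to 5.64; 0.62), EPHB1 (3.52 to 5.09; 0.59) and PLXNC1 (6.45 to 9.23; 0.58) were largest. The direction of these 5 medians was the same on the values as deposited and under both other scalings. Members below 1 FPKM on both days, such as SYT13, GLRA2 and KCND2, passed the filter only through other days. For SYT13 the later rise was thus a condition of being counted, so these shares are not to be read against 3.49% alone. With no filter on low values the medians, in the order given, were 0.508, 0.447, 0.434, 0.305 and 0.160.

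Setting the step beside its neighbours, the medians of the microtubule and axon list were 0.09, 0.10, 0.27, 0.51, 0.67 and 0.34 over the 6 steps in order, and those of the synaptic list were 0.30, 0.26, 0.32, 0.51, 0.96 and 0.84. The rise from day 4 to day 5 took 1 day, and the larger one that followed took 6. Adjacent steps share a day, so the medians are given as values only.

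**Figure D4:**
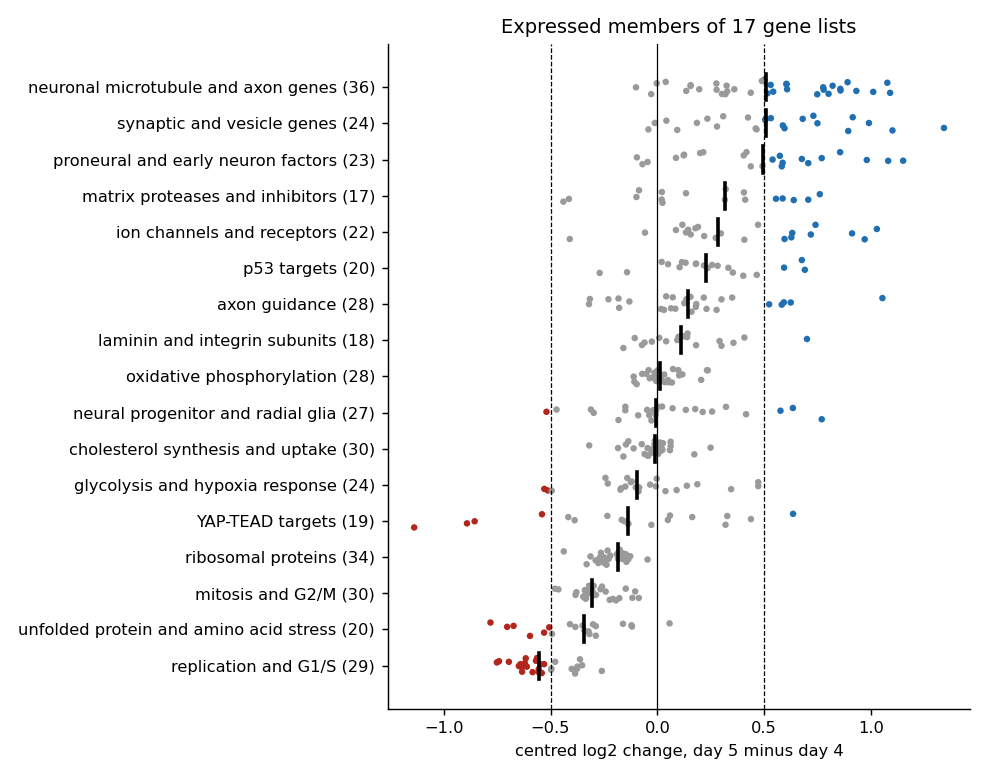
Centred log2 change from day 4 to day 5 (x axis) of every expressed member of 17 gene lists (rows, number of members in brackets); each dot is 1 gene, blue at or above 0.5, red at or below −0.5, grey between, and the black bar is the list's median. Replication genes lie wholly below 0 (median −0.56), mitotic and ribosomal protein genes form tight grey groups below 0, and the neuronal lists have medians near 0.5.

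Of 20 targets of p53, 3 rose (15%, against 3.49% of all coding records) and 0 fell (median 0.23, 18 of 20 above the median of all records): MDM2, the ligase that degrades p53, went from 38.2 to 58.8 FPKM (0.69), BTG2 as given above, and CDKN1A, the cell cycle inhibitor p21, from 107 to 153 (0.59). CDKN1A had held between 107 and 129 on days 0 to 4. Heat shock genes had 1 of 12 higher (8.33%), the small heat shock protein HSPB1 (32.2 to 45.7; 0.58), with a median of 0.07. In the oxidative and metal stress list 2 of 9 rose (22.2%), haem oxygenase HMOX1 (3.03 to 4.67; 0.68) and the metallothionein MT2A, merged with MT1A (3.04 to 4.13; 0.50). The median was 0.15. Glycolysis and hypoxia genes had 2 of 24 lower (8.33%, against 1.31% of all coding records) and 0 higher. These 2 were the glucose transporter SLC2A3 (29.7 to 19.6; −0.53) and the growth factor VEGFA (38.3 to 25.5; −0.51). The list's median of −0.09 turned to 0.09 when centred on ribosomal protein genes. EPAS1, whose protein is known to activate VEGFA, was thus higher on the day VEGFA was lower. Interferon and antigen presentation genes had 0 of 8 past the fold (median 0.09, B2M 0.43).

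Of 19 genes of BMP and TGF-beta response 3 rose and 0 fell, 15.8% against 3.49% of all coding records (median 0.15): the matrix protein TGFBI (0.556 to 1.06; 0.90), ID2, an inhibitor of bHLH factors (5.06 to 7.81; 0.69), and SMAD9 (1.22 to 1.88; 0.66). In the Wnt pathway the inhibitor DKK1 rose from 2.06 to 3.42 FPKM (0.77) and the transcription factor TCF7 fell from 2.84 to 1.85 (−0.52), each 1 of 19 (5.26%), with 17 not past the fold and a median of 0.09.

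Records of lincRNAs had to be read against what they overlap. The reads were counted without stated use of strand, so a record antisense to a coding gene cannot be told apart from that gene's own transcript. Of the 2650 expressed records 50.1% shared exon bases with a coding record, and so did 60.7% of the 117 higher and 46.2% of the 78 lower ones. Near-copies of a coding transcript elsewhere in the genome (at least 95% identity over 200 bases) made up 32.9% of expressed, 17.1% of higher and 35.9% of lower records.

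The lincRNA record ranked first among rises and several of those with the largest falls resemble EEF1A1, the gene of translation elongation factor 1 alpha. The record linc-STEAP1B-1 (99.4% identical to an EEF1A1 transcript over 1313 aligned bases) was at 2335, 3578 and 4913 FPKM on days 0, 1 and 2, was listed at 0 on day 4, at 4067 on day 5 and 3318 on day 11, and again at 0 on day 18. The authors' table marks its comparison across this step as holding too much data, so the 0 is no measurement of absence. On exactly the days at 0, other near-copies were high: linc-ALG14-6 was at 19.4, 104 and 12.2 FPKM on days 2, 4 and 5 (−3.01) and at 78.3 on day 18, linc-RGPD4-5 at 1.43, 11.3 and 1.26 (−3.01) and 17.8, and linc-RGPD3-2, on the other strand of the same place, at 5.19, 15.8 and 3.50 (−2.07) and 8.74. EEF1A1 itself was at 2959, 3124 and 2636 FPKM on days 2, 4 and 5 (−0.17). Less variable copies also fell, linc-FAM105B from 309 to 160 (−0.88) and EEF1AL7 from 5.95 to 3.26 (−0.78; both named after their values were seen). Summed over EEF1A1 and the 11 near-copy records, FPKM was 8365 on day 2, 3913 on day 4 and 7130 on day 5. The day 4 sum takes linc-STEAP1B-1 at its listed 0, so it is no measured level. Among the 11 are also linc-GTF3C5 and linc-GFI1B-AS, listed at 797 and 2279 on day 0 and at 0 on all later days, and likewise marked as holding too much data.

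The 60 bases of EEF1A1 coding sequence at which these copies differ most from it, among stretches they all align to without a gap, are printed to show how little tells the records apart. Positions are GRCh37, EEF1A1 at chr6:74229070-74229129 (minus strand), linc-STEAP1B-1 at chr7:22551305-22551364 (minus), linc-FAM105B at chr5:14653122-14653181 (minus), linc-ALG14-6 at chr1:96912740-96912799 (plus), linc-RGPD4-5 at chr2:107314819-107314878 (minus) and EEF1AL7 at chr4:106406103-106406162 (plus), all read in the sense of EEF1A1, and capitals mark bases that differ from it.
EEF1A1: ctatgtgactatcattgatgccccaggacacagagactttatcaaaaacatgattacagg
linc-STEAP1B-1: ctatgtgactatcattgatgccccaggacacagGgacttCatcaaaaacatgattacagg
linc-FAM105B: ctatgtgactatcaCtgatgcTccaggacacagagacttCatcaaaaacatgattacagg
linc-ALG14-6: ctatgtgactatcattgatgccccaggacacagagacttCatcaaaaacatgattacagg
linc-RGPD4-5: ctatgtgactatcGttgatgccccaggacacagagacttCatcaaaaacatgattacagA
EEF1AL7: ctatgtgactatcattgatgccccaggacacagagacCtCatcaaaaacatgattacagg
The copies differ from EEF1A1 at 1 to 3 of the 60 bases.

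**Figure D5:**
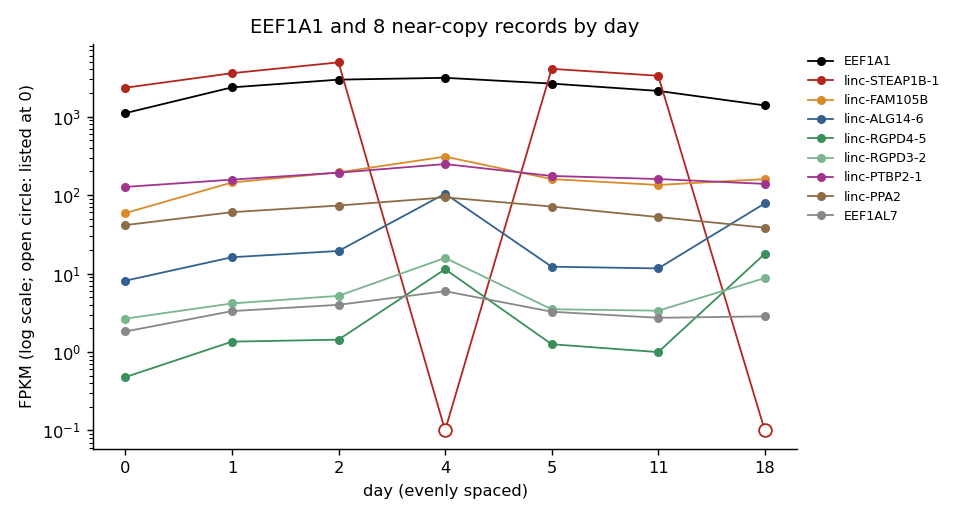
FPKM on a log scale (y axis) against the day (x axis, evenly spaced) for EEF1A1 and 8 records that are near-copies of it; each point is 1 pooled value, and open circles at the bottom mark days on which a record is listed at 0. On days 4 and 18 linc-STEAP1B-1 is listed at 0 while linc-ALG14-6, linc-RGPD4-5 and linc-RGPD3-2 have their highest values.

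Other lincRNA records among the largest changes were low or lay over genes. Of the rises, linc-SYT7, which has 56.2% of its exon bases in common with an unnamed coding record below 0.1 FPKM on both days, went from 0.236 to 1.38 FPKM (2.21), linc-CD28, 95.2% identical to ZNF207 over 231 bases, from 0.329 to 1.45 (1.92), linc-ASH1L-2, which carries the pseudogene flag, from 0.428 to 1.69 (1.83) and linc-ANO5-AS from 1.48 to 4.02 and on to 5.50 and 7.09 (1.45). The record linc-ANXA11 (9.81 to 24.8; 1.40) is 98.7% identical to EIF5AL1 over 1227 bases. The antisense records linc-SRP9-AS (1.35 to 3.36; 1.32) and linc-KANSL3-AS (0.715 to 1.77; 1.27) share 86.9% and 99.5% of their exon bases with SRP9 and KIAA1310, which changed by 0.01 and −0.07. Of the falls, linc-ANP32E-AS was listed at 0 on days 2 and 5 and at 5.46 on day 4, so no fold is given. The record linc-DTL-AS fell from 3.66 to 1.23 (−1.43) and has 98.9% of its exon bases in common with DTL, a replication licensing gene that itself fell from 15.3 to 9.67 (−0.59). Both linc-ABHD5-AS (1.11 to 0.259; −1.68) and linc-FYN-BP (9.47 to 3.31; −1.42) fell, and share 96.6% and 80.3% of their exon bases with ABHD5 (−0.06) and FYN (0.17), which were not past the fold.

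In a set with fewer of these uncertainties, 391 lincRNA records on primary chromosomes shared no exon base with a coding record, carried no pseudogene flag and were no near-copy. They held at least 300 exon bases, had a comparison across this step marked as OK, and were not listed at 0 on day 4 or day 5. The limits were set after the values were seen. Of these 391 records 18 rose (4.60%, against 4.42% of all expressed lincRNA records) and 8 fell (2.05%, against 2.94%). The planned cut, without pseudogene-flagged or exon-sharing records only, had 3.13% higher and 2.99% lower. Some members past the fold still lie at or close to annotated genes, whose reads may be counted in them. On the same strand these are coding genes for linc-TNNI1 (PHLDA3), linc-NKAIN2 (CLVS2) and linc-ADAMTSL1 (ADAMTSL1). On the other strand they are pseudogenes for linc-TREM1-2 (NPM1P51), linc-THSD4-3 (RPL5P3) and linc-CNKSR3 (RPS4XP8). Some of the records that rose lie close together on chromosome 4, where linc-DCUN1D4-13 and linc-OCIAD2-1 overlap on opposite strands and cannot be told apart. The largest fall was that of linc-CDK17-4 (chr12:98506848-98656863, hg19, minus strand), which had built up from 0.600 on day 0 through 1.06 and 2.27 to 6.98 FPKM on day 4, was at 1.85 on day 5, and at 0.753 and 0.721 afterwards (−1.79, 3.45-fold lower). Its neighbour linc-CDK17-3 (chr12:98102869-98387643, minus strand) had 0.229, 0.592 and 0.857 FPKM on days 0, 1 and 2, 2.66 on day 4 and 1.30 on day 5 (−0.91). Both records of this region thus peaked on day 4.

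The records of that set that rose were at no more than 4.09 FPKM on day 4, and several went on to higher levels. The filter averages all 7 days. A record below 1 FPKM up to day 5, such as linc-MAP1LC3B2-5, could therefore enter only through its later days, so its later rise is a condition of being counted. The record linc-PPP1R3B-3, which lies in the host gene of the neuronal microRNA miR-124 (MIR124-1HG), stood at 1.07, 1.08 and 2.06 FPKM on days 0, 1 and 2, 2.23 on day 4, 4.88 on day 5 and 10.8 on day 18 (1.17). The record linc-MAP1LC3B2-5, at the antisense gene LHX5-AS1 beside the homeobox gene LHX5, went from 0.289 to 0.751 and to 5.03 on day 18 (1.20), and linc-PRDM9-8, at LINC02223, from 0.538 to 1.28 and to 4.39 (1.18). The record linc-POU3F3-6, at LINC01102, went from 1.45 to 2.16 and to 4.15 on day 11 (0.62), while linc-SH3BP4-1 (0.932 to 1.70; 0.87) and linc-AGA-9 (2.88 to 4.02; 0.54) rose to a day 5 level that was lost by day 11, at 0.370 and 0.591. The 6 records of this paragraph and the pair on chromosome 12 were picked after their values were seen, apart from linc-CDK17-4.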

How the data were processed

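RNA-seq had been carried out on 20 cultures of H1-derived neural progenitors (3 per day on days 0, 1, 2, 4, 11 and 18, and 2 on day 5), grouped by sample titles. Reads were aligned to hg19 with TopHat2 per the labels, transcripts were assembled with Cufflinks, and the authors used Cuffdiff2 to estimate the deposited FPKM values, 1 per record and day over its cultures; versions are not given in the sources used here. The deposited coordinates of the records, in hg19, served to place them. Columns of single samples numbered 0, so depth, the spread between cultures and any test (limma on cultures was foreseen) could not be had. Whether cultures were separate preparations is not stated. A table of comparisons holds the authors' fold changes, test statistics, p-values and q-values, none of which were used. Read from it were the names, exon positions, strands and annotation flags of the records, and the status of the comparison of day 5 with day 4, to mark estimates that failed.

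The change was the difference in log2(FPKM + 0.1) between day 5 and day 4, less the median for records averaging at least 1 FPKM over the 7 days. Records past 0.5 in size were counted, with 1 as a stricter limit. Named were the 12 coding and 8 lincRNA records with the largest rise and fall (at least 300 exon bases, primary chromosomes), and in each of 33 gene lists up to 4 members past 0.5, or the largest where none was. Members and lists were chosen with earlier results of these data known. Of 763 list symbols 762 were matched. Near-copies were records with at least 95% identity over 200 bases to a coding transcript elsewhere (BLAST+ 2.17.0, GRCh37). Promoters were RefSeq entries of GRCh38.p14 matched by symbol. Python 3.11.15, NumPy 2.4.6, pandas 2.3.3, pysam 0.24.0 and matplotlib 3.10.9 were used, and the scripts were tested on simulated data. Alternatives covered the pseudocount, the filter on low values, the centring, the fold and the kinds of record kept. Results on a few named genes are not reported here.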

Additional observations from a re-analysis of the deposited data

How the results depend on the processing

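The counts of records past the fold (412 coding records higher and 154 lower, 117 and 78 lincRNA records) depended on the settings. With a pseudocount of 1 they were 219 and 99 for coding and 52 and 35 for lincRNA records. Where records had to average at least 5 FPKM they were 178 and 91, and 15 and 12. With no filter on low values they were 953 and 261, and 1149 and 558. Without centring, 323 coding records were higher and 252 lower, and the balance of the lincRNA records turned, with 81 higher and 120 lower. Centred on ribosomal protein genes, 897 coding records were higher and 35 lower, with 318 and 33 lincRNA records. At a fold of 1 the counts were 44 and 5, and 21 and 17. Without lincRNA records that carry the pseudogene flag or share coding exons, 23 were higher and 22 lower, and without near-copies, an alternative chosen after seeing the data, 50 were lower. The other counts, under these settings and under a pseudocount of 0.01, the same sum of FPKM, no failed estimates or a minimum of 300 exon bases (the last pair also chosen after seeing the data), stayed within 1.5 times. Of 33 gene lists 12 had a median below 0, and 3 did when 0 was set at the median of the ribosomal protein genes, a shift that moves all records alike. Of 251 list medians under the alternatives 201 stayed within 0.098 of the first value, and of 200 values of named genes 199 stayed past the fold, the exception being NPS (0.228 with a pseudocount of 1). Where records had to average at least 5 FPKM, the medians of ion channels and receptors (0.29), other matrix (0.09) and cadherins (0.09) were 0.16, 0.01 and 0.02. The endothelial median of 0.57, over 2 members, was 0.93 in that case and 0.23 with no filter on low values.

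No paired analysis was possible because each day has 1 value pooled over its cultures, and leaving out each culture in turn was not run for the same reason. Depth is not known, so low records, in which changes past the fold were most frequent, cannot be weighed by their counts.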

Other observations

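Clustered histone genes, a list put together after these values were seen, moved against the replication genes. Of 68 records 19 were expressed, and of these 9 rose (47.4%, against 3.49% of all coding records) and 0 fell. The 68 records summed to only 80.1 FPKM on day 4 and 108 on day 5, and rises were more frequent at low levels (125 of 936 coding records between 1 and 2 FPKM). The median change of the expressed members, 0.47, was 0.27 with a pseudocount of 1 and 0.29 with no filter on low values. HIST1H1C, the gene of a linker histone, held 8.82, 3.81, 2.44 and 1.65 FPKM on days 0, 1, 2 and 4 and 4.90 on day 5, and was at 2.98 and 2.65 on days 11 and 18 (1.59). HIST1H2BG went from 0.456 to 1.09 FPKM (1.17) and HIST2H2BE from 7.12 to 11.5. Messenger RNAs of these genes mostly end without a poly(A) tail, and the libraries were made from polyadenylated RNA, so the values cover only transcripts that carry one. Several members have near-identical copies among which reads can be split.

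Translation factors, a list likewise chosen after the values were seen, lay below the median of all records in 14 of 15 cases, with 0 past the fold and a median of −0.24, which was −0.05 when the days were centred on ribosomal protein genes. EEF1D, a subunit of elongation factor 1, changed most (−0.43).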
